A study of Homo sapiens with 8 samples.

Results

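The genes studied here encode the nuclear part of the mitochondrial respiratory chain. They were measured by RNA sequencing in a human cell line labelled as with or without estrogen receptor beta (ERβ, gene ESR2). Members were the genes with symbols of the NDUFA, NDUFB, NDUFC, NDUFS, NDUFV, SDHA to SDHD, UQCR, COX4 to COX8 and ATP5 series that had at least 10 reads in 2 or more of the 8 libraries. This gave 81 of the 23228 genes listed, out of 90 with a matching symbol. They were 36 genes of complex I, 4 of complex II, 9 of complex III, 13 of complex IV, 15 of complex V and 4 others. The others are ATP5S, ATP5SL and COX4NB (now EMC8), which are not subunits of the chain, and ATP5EP2, a pseudogene of ATP5E. The 9 symbols left out had at most 3 reads in any library, while the member with the fewest reads, NDUFA4L2, had 75 to 251. The members were thus selected on their read counts, and that they were detected is no finding.

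The libraries are labelled as U87 MG, an established glioblastoma line grown in DMEM with fetal bovine serum, and fall into 4 groups of 2 libraries. ERβ5 and ERβ1 libraries come from knockout cells given back either the ERβ5 or the ERβ1 isoform of the receptor. ERβ-KO libraries come from cells whose ERβ gene was disrupted with CRISPR/Cas9, and control libraries from unmodified U87 cells. Neither the clonal origin of the modified lines nor the way the isoforms were delivered is given in the labels, and separate cultures behind the 2 libraries of each group are not stated.

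The respiratory chain sits in the inner mitochondrial membrane. Complexes I (NADH dehydrogenase) and II (succinate dehydrogenase) pass electrons to ubiquinone, complex III passes them to cytochrome c and complex IV to oxygen, and complex V (ATP synthase) uses the resulting proton gradient to make ATP. Most subunits are encoded in the nucleus and a few core subunits of complexes I, III, IV and V in mitochondrial DNA, so that assembly needs both genomes. Nuclear respiratory factor 1 (NRF1), the ETS-type factor GABP, YY1 and the estrogen-related receptors are known activators of nuclear respiratory genes.

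Reads in genes numbered 26760897 to 48076414 per library, and 13915 genes, all 81 members among them, had enough reads to be tested. ESR2 had 7 and 10 reads in ERβ5 libraries, 6 and 18 in ERβ1 libraries, 23 and 21 in ERβ-KO libraries, and 25 and 20 in control libraries. These are 0.203 to 0.690 CPM (reads scaled to a common library total), too few to check the knockout. Every isoform library had fewer ESR2 reads than any ERβ-KO or control library. Group names below therefore mean the libraries so labelled. Of 20 markers of mesenchymal glioma cells, 5 reached 10 CPM in every library and 4 (POSTN, THY1, OLIG2 and S100B) had 0 reads throughout, and GFAP stood at 0.0469 to 0.135 CPM. All 16 markers of luminal epithelium reached 10 CPM in every library, so the data go against the labelled cell type. Their summed level was 18100 and 18970 CPM in ERβ5, 20040 and 19160 in ERβ1, 14470 and 14600 in ERβ-KO, and 16210 and 17010 in control libraries. It was lowest in ERβ-KO, as was the sum of the respiratory genes given below. The marker sum follows its most abundant genes, such as KRT8 (2101 to 4431 CPM over the libraries). Of the 16, 4 were lower and 0 higher in ERβ-KO than in control libraries at an edgeR adjusted p under 0.05. The shares of all genes were 8.52% and 8.98%, and the median log2 change of the 16 was -0.07. The summed glioma markers were highest in ERβ-KO libraries, at 363 and 314 CPM, against 239 to 304 CPM in the other 6. That list did not move as a whole. FN1 had 7632 and 3949 reads in ERβ-KO and 3683 and 3180 in control libraries, while LGALS1 had 2484 and 1943 against 3878 and 3698. Of 12 glioma markers tested, 1 was higher and 1 lower in ERβ-KO than in control libraries, with a median log2 change of -0.07. The part of these markers in the results below was not tested.

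Per kilobase of transcript, the highest level of each complex over all libraries was that of NDUFA13 in complex I (464 CPM per kb), SDHB in complex II (116), UQCRHL in complex III (232), COX4I1 in complex IV (1008) and ATP5B, the catalytic beta subunit of complex V (942). UQCRHL is a retrocopy of UQCRH and shares nearly all of its sequence, so the split of reads between them is uncertain. The same holds for ATP5E and ATP5EP2. Among the isoforms of complex IV, the ubiquitous or liver-type genes carried nearly all reads. COX4I2, COX6A2 and COX7A1, the isoforms of lung, heart or skeletal muscle, had 0 to 2 reads in every library, against 110 to 903 CPM for COX4I1, COX6A1, COX7A2 and COX8A. The 13 subunits encoded in mitochondrial DNA were looked for by name, and none was found among the genes listed, so they are not analysed here.

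Summed over the 81 members, the level was 11740 and 12560 CPM in ERβ5, 13220 and 12660 CPM in ERβ1, 10440 and 11210 CPM in ERβ-KO, and 12240 and 12990 CPM in control libraries. Both ERβ-KO libraries lay below the other 6. Less respiratory messenger RNA per cell, a different mix of cells and a technical difference between libraries cannot be told apart in these bulk samples. The GC content trend that set the ERβ-KO libraries apart, described below, was not removed from these sums. Relative to the control mean, the median member stood at -0.07 and 0.09 (log2) in the ERβ5 libraries, 0.06 and 0.00 in the ERβ1 libraries, and -0.26 and -0.17 in the ERβ-KO libraries, while the median of all genes stayed between -0.01 and 0.02. The 2 ERβ5 libraries thus lay on either side of the control mean.

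**Figure D1:**
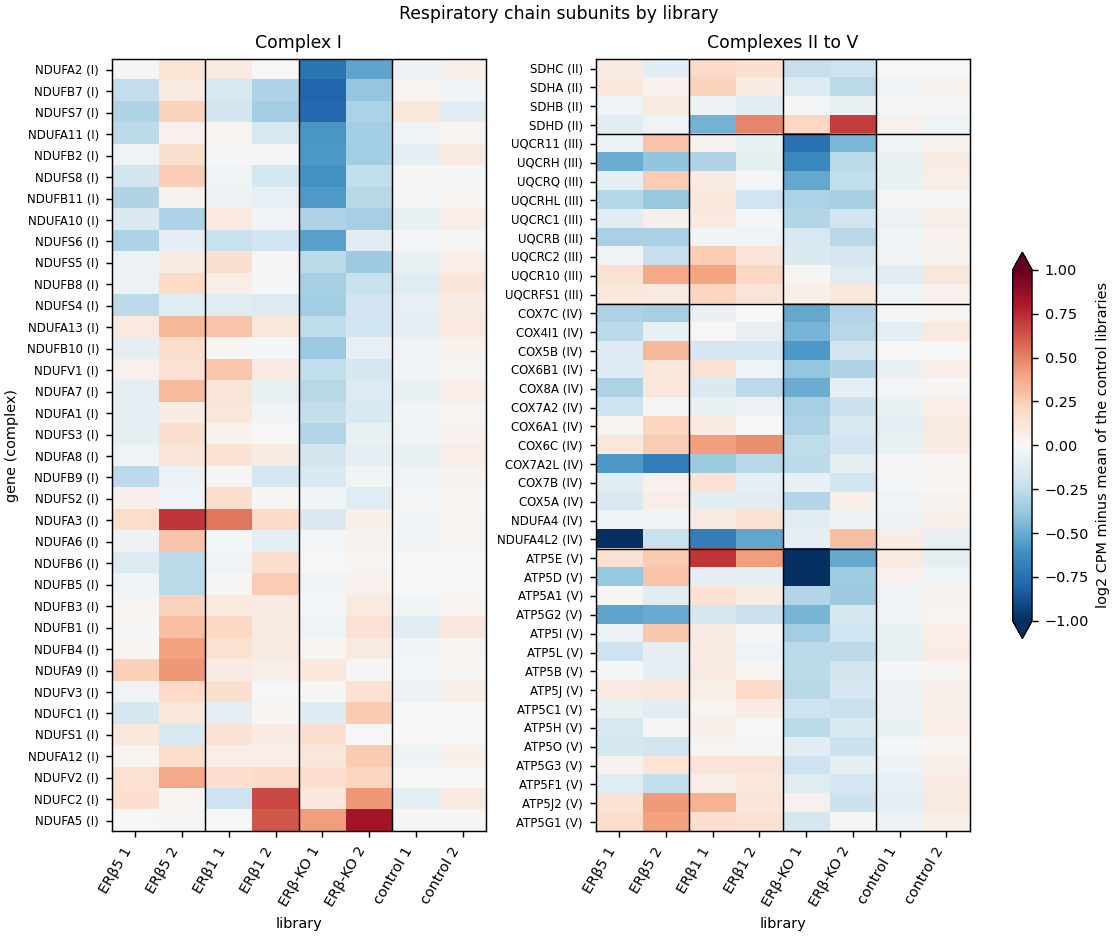
Heat map of the 77 subunit genes of complexes I to V (rows, sorted within a complex by the change in ERβ-KO) in the 8 libraries (columns). Colour gives log2 CPM minus the mean of the 2 control libraries, with values beyond 1 in either direction shown at the end colour. Most rows are blue in the 2 ERβ-KO columns, with NDUFA5, at the foot of complex I, the opposite.

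The first comparison asks what went with the labelled loss of ERβ. In ERβ-KO libraries 13 of the 81 members were lower than in control libraries and 1 was higher, at an adjusted p under 0.05 in edgeR's quasi-likelihood test. Over all genes tested, 8.52% were lower and 8.98% higher. The decreases were 6 in complex I, 2 each in complexes III, IV and V, 0 in complex II, and ATP5SL outside the complexes. The median member was 0.21 lower on the log2 scale (all genes, 0.01), with medians of -0.16 in complex I, -0.12 in II, -0.24 in III, -0.23 in IV and -0.22 in V. In 57 members both ERβ-KO libraries were below both control libraries, and in 6 both were above. The matching shares of all genes were 33.6% and 35.5%.

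In complex I, all 6 decreases were among the 29 accessory subunits, which surround the electron-carrying core, and none of the 7 core subunits passed the test. This does not show that the core was spared. The median log2 change was -0.14 in accessory and -0.18 in core subunits, and the core subunits NDUFS7 (-0.54) and NDUFS8 (-0.42) missed the threshold. With the GC content and length trend of each library removed, NDUFS7 stood at -0.02 and NDUFS8 at 0.01. The accessory subunits NDUFB7 (-0.08) and NDUFA11 (-0.03) were then not called either. NDUFA2, an accessory subunit of the matrix arm, had 45.1 and 52.0 CPM in ERβ-KO libraries, against 72.4 and 77.5 CPM in control libraries. The groups did not overlap, and the log2 change of -0.63 ± 0.11 (SE, n = 2 each) had an edgeR adjusted p of 0.00475. NDUFB7 of the membrane arm had 60.4 and 79.99 CPM in ERβ-KO and 107 and 103 CPM in control libraries, a log2 change of -0.58 ± 0.15 (edgeR adjusted p = 0.0224). NDUFA11, also of the membrane arm, had 45.5 and 53.7 CPM in ERβ-KO and 66.8 and 69.5 CPM in control libraries, a log2 change of -0.46 ± 0.13 (edgeR adjusted p = 0.0324). For NDUFB7 the 2 ERβ-KO libraries differed by more than the 2 control libraries did. NDUFB2 (-0.45), NDUFB11 (-0.42) and NDUFA10 (-0.32) also fell. Only NDUFA5, an accessory subunit of the matrix arm, was higher in ERβ-KO, at 33.9 and 45.2 CPM against 25.2 and 25.7 CPM in control libraries. Its log2 change was 0.63 ± 0.19 (edgeR adjusted p = 0.0388), and its 2 ERβ-KO libraries were far apart.

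Complex II passed the test in neither direction. SDHA, the flavoprotein that oxidises succinate, had 132 and 121 CPM in ERβ-KO and 142 and 149 CPM in control libraries. SDHB, the iron-sulfur subunit, had 118 and 114 CPM in ERβ-KO and 118 and 120 CPM in control libraries. The membrane anchor SDHC had 62.1 and 63.4 CPM in ERβ-KO and 72.9 and 73.0 CPM in control libraries, which did not overlap but missed the threshold (log2 -0.22 ± 0.10, edgeR adjusted p = 0.144). The other anchor, SDHD, had 25.8 and 36.3 CPM in ERβ-KO and 23.0 and 21.7 CPM in control libraries, so its direction was the opposite, with a wide gap between the ERβ-KO libraries.

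In complex III the decreases were in UQCR11 and UQCRH. UQCR11, a small membrane subunit, had 42.1 and 51.2 CPM in ERβ-KO libraries, against 68.9 and 72.0 CPM in control libraries. Its groups did not overlap, with a log2 change of -0.60 ± 0.13 (edgeR adjusted p = 0.0136). UQCRH, the hinge protein that contacts the cytochrome, had 49.8 and 64.7 CPM in ERβ-KO and 73.9 and 81.8 CPM in control libraries (log2 -0.45 ± 0.13, edgeR adjusted p = 0.0392). Its retrocopy UQCRHL was at 57.6 and 57.3 CPM in ERβ-KO and 71.2 and 72.7 CPM in control libraries and missed the threshold. The core protein UQCRC1 (log2 -0.24) and the Rieske iron-sulfur protein UQCRFS1 (0.08) were not called.

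In complex IV, COX4I1 and COX7C fell. COX4I1, the regulatory subunit that binds adenine nucleotides, had 612 and 696 CPM in ERβ-KO libraries, against 790 and 903 CPM in control libraries, a log2 change of -0.37 ± 0.11 (edgeR adjusted p = 0.0429). COX7C, a small membrane subunit, had 158 and 185 CPM in ERβ-KO and 223 and 230 CPM in control libraries (-0.40 ± 0.10, edgeR adjusted p = 0.0214). Both genes were lower in each ERβ-KO library than in either control library. COX6A1 (-0.23), COX7A2 (-0.27) and COX8A (-0.28) were not called, nor was NDUFA4 (-0.08), once counted with complex I and now placed in complex IV. This set changed with the GC content and length trend of each library removed. NDUFA4 (-0.32), COX6C (-0.34) and COX7A2L (-0.46) were then called lower and COX7C (-0.49) remained. COX4I1 (-0.20), COX6A1 (-0.02), COX7A2 (-0.17) and COX8A (0.05) were not called.

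In complex V, 2 of the 5 subunits of the catalytic F1 head were called lower and none of the 10 of the membrane part and stalks. All 15 had a negative log2 change, with medians of -0.33 in the head and -0.19 in the rest. The calls did not stay confined to the head with the GC content and length trend of each library removed. ATP5F1 (-0.41), ATP5G3 (-0.45), ATP5J (-0.28) and ATP5L (-0.46) of the membrane part and stalks were then called lower. So was ATP5C1 (-0.30) of the head, while ATP5G1 (0.16) and ATP5J2 (0.13) turned positive and were not called. ATP5A1, the alpha subunit, had 362 and 344 CPM in ERβ-KO libraries, against 432 and 455 CPM in control libraries (log2 -0.33 ± 0.10, edgeR adjusted p = 0.0369). ATP5E, the epsilon subunit of the rotor, had 4.82 and 7.48 CPM in ERβ-KO and 11.4 and 10.0 CPM in control libraries (-0.81 ± 0.20, edgeR adjusted p = 0.0192). No library overlapped between the groups in either gene, but the reads of ATP5E are shared with its pseudogene, which had 109 and 118 CPM in ERβ-KO and 124 and 151 CPM in control libraries. The beta subunit ATP5B had 1429 and 1512 CPM in ERβ-KO and 1696 and 1735 CPM in control libraries and was not called (-0.22 ± 0.10, edgeR adjusted p = 0.124).

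These calls rest on few libraries. Without control library 1 a single decrease (NDUFA2) was called, without control library 2 none, without ERβ-KO library 1 none, and without ERβ-KO library 2 there were 14, while lower calls over all genes numbered 216, 101, 140 and 812 in these fits, against 1185 with all libraries. The plot by complex, drawn from the fit of all 8 libraries, shows medians below 0 in every complex. Over the 8 fits that left out a library, the medians of the 5 complexes ran from -0.31 to -0.08. With the GC content and length trend of each library removed, the median of complex I was 0.01, and those of II to V were -0.09, -0.28, -0.20 and -0.17. Leaving out either ERβ5 library gave more decreases, both among the members and over all genes. The rise of NDUFA5 was not called without any 1 of the control or ERβ-KO libraries.

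**Figure D2:**
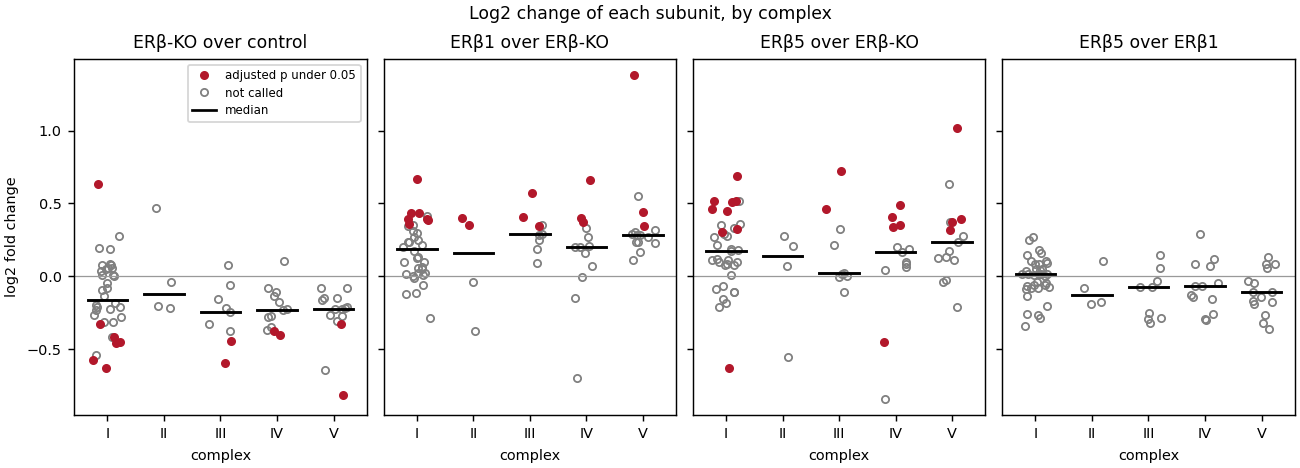
Log2 fold change of each of the 77 subunit genes (y axis) by complex (x axis) in 4 comparisons, each named with the group on top of the ratio first. Filled red points passed an adjusted p of 0.05, open points did not, and black bars are medians. Medians lie below 0 in all 5 complexes for ERβ-KO over control (complex I stood at 0.01 with the GC content and length trend removed) and above 0 for ERβ1 over ERβ-KO and ERβ5 over ERβ-KO, and no point is filled for ERβ5 over ERβ1.

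Regulatory sequence of 4 genes is shown because they moved in opposite directions or differ in the motif reported. Each run is the RefSeq promoter window (build GRCh38.p14, from 250 bases before to 50 bases after the gene start), 5′ to 3′ on the gene's own strand. Capitals mark matches to the ETS motif CCGGAAG, a common core of ETS-family sites, on either strand. UQCR11 lies on the minus strand at chr19:1605413-1605712, COX4I1 on the plus strand at chr16:85799445-85799744, NDUFA2 on the minus strand at chr5:140647581-140647880 and NDUFA5 on the minus strand at chr7:123601602-123601901.
UQCR11: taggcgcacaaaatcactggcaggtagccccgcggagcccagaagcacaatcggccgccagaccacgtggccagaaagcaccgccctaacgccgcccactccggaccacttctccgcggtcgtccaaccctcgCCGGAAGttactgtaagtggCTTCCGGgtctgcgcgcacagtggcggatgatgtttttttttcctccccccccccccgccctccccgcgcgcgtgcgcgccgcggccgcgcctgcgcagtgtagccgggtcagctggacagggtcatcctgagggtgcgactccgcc
COX4I1: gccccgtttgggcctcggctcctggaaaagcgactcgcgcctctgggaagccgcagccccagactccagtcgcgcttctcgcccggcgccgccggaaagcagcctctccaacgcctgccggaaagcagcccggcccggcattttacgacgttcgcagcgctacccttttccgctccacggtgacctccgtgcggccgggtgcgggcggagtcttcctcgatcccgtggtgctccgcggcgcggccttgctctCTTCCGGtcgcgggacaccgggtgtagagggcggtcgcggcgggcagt
NDUFA2: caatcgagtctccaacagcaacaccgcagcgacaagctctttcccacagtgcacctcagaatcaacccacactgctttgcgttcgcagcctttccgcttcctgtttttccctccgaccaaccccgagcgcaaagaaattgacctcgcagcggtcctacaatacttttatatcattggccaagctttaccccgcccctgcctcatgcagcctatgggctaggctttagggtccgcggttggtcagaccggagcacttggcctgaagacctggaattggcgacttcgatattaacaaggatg
NDUFA5: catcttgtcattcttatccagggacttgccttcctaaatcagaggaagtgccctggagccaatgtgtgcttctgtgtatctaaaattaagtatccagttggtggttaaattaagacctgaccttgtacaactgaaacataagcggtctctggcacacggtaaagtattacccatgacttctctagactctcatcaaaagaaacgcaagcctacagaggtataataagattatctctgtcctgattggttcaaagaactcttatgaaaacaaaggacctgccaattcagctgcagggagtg
UQCR11 held 2 matches, COX4I1 held 1, and NDUFA2 and NDUFA5 held none. NDUFA2, which fell, and NDUFA5, which rose, thus share the lack of these letters in the window. Each window follows an annotated start. Whether the NDUFA5 reads come from transcripts of that start was not checked, so its lack of matches may not describe the promoter in use.

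A promoter sequence was matched to 64 of the 81 members. The ETS motif was in 20 of the 64 (31.2%), against 10.7% of all 27305 promoters. Among the 13 decreases in ERβ-KO, all with a promoter sequence, 4 held it (30.8%). Of the increases against ERβ-KO with a promoter sequence, it was in 9 of 16 for ERβ5 (56.2%) and 5 of 15 for ERβ1 (33.3%), sets that share genes, and these shares were not tested.

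The second comparison asks what returned in the libraries labelled ERβ1. Of the 81 members, 19 were higher and 0 lower in ERβ1 than in ERβ-KO libraries (edgeR), against 12.4% of all genes higher and 12.5% lower. At an unadjusted p under 0.05 there was 1 lower member, NDUFA4L2, and DESeq2 called 26 higher and 0 lower. The increases were 7 of complex I, 2 of complex II, 3 each of complexes III, IV and V, and ATP5EP2. The median change was 0.24 (log2), with 0.19 in complex I, 0.16 in II, 0.29 in III, 0.20 in IV and 0.28 in V, and every member of complexes III and V had a positive value. Both ERβ1 libraries lay above both ERβ-KO libraries in 54 members and below in 4, against 33.4% and 31.9% of all genes. This comparison uses the same ERβ-KO libraries as the first, so the 2 are not independent.

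ATP5E had 17.5 and 14.3 CPM in ERβ1 libraries, against 4.82 and 7.48 CPM in ERβ-KO libraries. It was the largest rise among the members, at 1.38 ± 0.20 (log2, SE, n = 2 each, edgeR adjusted p = 0.000705), with the same uncertainty about its pseudogene. ATP5EP2 itself had 167 and 156 CPM in ERβ1 and 109 and 118 CPM in ERβ-KO libraries (0.51 ± 0.14, edgeR adjusted p = 0.0194). ATP5A1 had 490 and 470 CPM in ERβ1 and 362 and 344 CPM in ERβ-KO libraries (0.44 ± 0.10, edgeR adjusted p = 0.00716). The peripheral stalk subunit ATP5J rose as well (0.35), while ATP5B reached 1830 and 1743 CPM in ERβ1 and missed the threshold (0.28, edgeR adjusted p = 0.0515).

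In complex I, NDUFA2 had 79.4 and 75.1 CPM in ERβ1 libraries, against 45.1 and 52.0 CPM in ERβ-KO libraries (0.67 ± 0.11, edgeR adjusted p = 0.00151). Its ERβ1 libraries lay at the level of the control libraries. NDUFB2 had 109 and 109 CPM in ERβ1 and 74.2 and 87.5 CPM in ERβ-KO libraries (0.43 ± 0.12, edgeR adjusted p = 0.0199). NDUFA13, an accessory subunit also known as GRIM19, had 283 and 251 CPM in ERβ1 and 194 and 201 CPM in ERβ-KO libraries (0.43 ± 0.11, edgeR adjusted p = 0.0191). A single core subunit was among the increases, NDUFV1, which binds NADH and flavin, with 286 and 250 CPM in ERβ1 and 200 and 209 CPM in ERβ-KO libraries (0.39 ± 0.10). The core subunit NDUFS1, which carries iron-sulfur clusters, was not called (0.03 ± 0.11). NDUFS5, NDUFA11 and NDUFA10 made up the rest (0.40, 0.39 and 0.36). With the GC content and length trend of each library removed, NDUFA13 (0.04), NDUFA11 (0.01), NDUFV1 (0.11) and NDUFB2 (0.19) were no longer called.

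Before that trend was removed, complex II had calls in this comparison only. SDHC had 83.3 and 82.0 CPM in ERβ1 libraries, against 62.1 and 63.4 CPM in ERβ-KO libraries (0.40 ± 0.10, edgeR adjusted p = 0.015). SDHA had 170 and 154 CPM in ERβ1 and 132 and 121 CPM in ERβ-KO libraries (0.36 ± 0.10, edgeR adjusted p = 0.0227). SDHB (-0.04) and SDHD (-0.37 ± 0.26) were not called, so the 4 genes of the complex did not share a direction.

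In complex III, UQCR11 had 72.0 and 66.9 CPM in ERβ1 libraries, against 42.1 and 51.2 CPM in ERβ-KO libraries (0.57 ± 0.13, edgeR adjusted p = 0.0101). UQCRQ, a ubiquinone-binding subunit (0.41), and the core protein UQCRC2 (0.35) rose as well. COX6C, a small subunit of complex IV, had 335 and 345 CPM in ERβ1 libraries, against 210 and 220 CPM in ERβ-KO libraries. The groups did not overlap, and the libraries of each lay close together (0.66 ± 0.10, edgeR adjusted p = 0.000899). COX6B1, which lies where the copies of the complex IV dimer meet, had 234 and 204 CPM in ERβ1 and 160 and 171 CPM in ERβ-KO libraries (0.40 ± 0.11), and COX7C rose by 0.37. COX6B1 was not called with that trend removed (0.17). NDUFA4L2, a paralog of NDUFA4 known as a target of hypoxia signalling, was at 3.61 and 4.05 CPM in ERβ1 and 5.42 and 7.15 CPM in ERβ-KO libraries and was not called (-0.70 ± 0.30, edgeR adjusted p = 0.105).

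The number of increases in ERβ1 depended on single libraries, with 3 left without ERβ1 library 1 and 4 without ERβ-KO library 1, 10 without ERβ-KO library 2 and 30 without either ERβ5 library. Higher calls over all genes moved too, to 512, 804 and 981 in the fits without ERβ1 library 1, ERβ-KO library 1 and ERβ-KO library 2, and 2080 and 2010 without ERβ5 library 1 and 2, against 1720 with all libraries. ATP5E, COX6C and NDUFA2 were called in all 8 of the fits that left out a library.

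In the libraries labelled ERβ5, 19 members were higher and 2 lower than in ERβ-KO libraries (edgeR), against 14.7% of all genes higher and 13.5% lower. The increases were 8 of complex I, 0 of II, 2 of III, 4 of IV and 4 of V, plus ATP5EP2, and the decreases were NDUFA5 and COX7A2L. The median change was 0.17 (log2), with 0.18 in complex I, 0.14 in II, 0.03 in III, 0.17 in IV and 0.24 in V. Both ERβ5 libraries lay above both ERβ-KO libraries in 42 members and below in 8, against 32.7% and 33.3% of all genes. The ERβ-KO libraries are again those of the other comparisons.

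UQCR11 had 67.9 and 86.0 CPM in ERβ5 libraries, against 42.1 and 51.2 CPM in ERβ-KO libraries (0.72 ± 0.13, SE, n = 2 each, edgeR adjusted p = 0.00423). NDUFA2 had 74.1 and 82.4 CPM in ERβ5 and 45.1 and 52.0 CPM in ERβ-KO libraries (0.69 ± 0.11, edgeR adjusted p = 0.00217). ATP5E had 11.9 and 12.8 CPM in ERβ5 and 4.82 and 7.48 CPM in ERβ-KO libraries (1.02 ± 0.20, edgeR adjusted p = 0.00547). All 3 genes were separate between the groups and were called in all 8 fits that left out a library.

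Others of complex I that rose were NDUFB2 (0.52), NDUFA3 (0.51), NDUFB7 (0.51), NDUFS8 (0.46), NDUFA13 (0.45), NDUFS5 (0.32) and NDUFV1 (0.31). NDUFS8 and NDUFV1 are core subunits and the rest accessory. With the GC content and length trend of each library removed, NDUFB7, NDUFV1 and NDUFS8 turned to -0.020, -0.022 and -0.0029, and NDUFA13 stood at 0.0099, none of them called. NDUFA3 had 41.6 and 60.2 CPM in ERβ5 and 33.1 and 38.1 CPM in ERβ-KO libraries, so ERβ5 library 2 carried most of its difference. In complex IV, COX5B, a zinc-binding subunit on the matrix side, had 105 and 144 CPM in ERβ5 and 77.1 and 101 CPM in ERβ-KO libraries (0.49 ± 0.15, edgeR adjusted p = 0.0358). Its ERβ5 library 1 was barely above ERβ-KO library 2. COX6C had 272 and 298 CPM in ERβ5 and 210 and 220 CPM in ERβ-KO libraries (0.41 ± 0.10, edgeR adjusted p = 0.0129), and COX6A1 (0.35) and COX6B1 (0.34) also rose. In complex V, ATP5I (0.39), ATP5G1 (0.37) and ATP5J (0.32), all of the membrane part and stalks, rose with ATP5E.

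The decreases were of different kinds. COX7A2L, which joins complexes III and IV in supercomplexes, had 169 and 157 CPM in ERβ5 libraries, against 209 and 236 CPM in ERβ-KO libraries (-0.45 ± 0.10, edgeR adjusted p = 0.00911). NDUFA5 had 25.4 and 25.6 CPM in ERβ5 and 33.9 and 45.2 CPM in ERβ-KO libraries (-0.63 ± 0.19, edgeR adjusted p = 0.0297). With the GC content and length trend of each library removed neither was called, at -0.11 ± 0.08 for COX7A2L and -0.13 ± 0.13 for NDUFA5 (edgeR adjusted p = 0.378 and 0.522). NDUFA5 in ERβ5 was at the control level of 25.2 and 25.7 CPM.

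ERβ5 library 2 lay above library 1 in many of these genes. Without it 3 increases were called (ATP5E, NDUFA2 and UQCR11), without ERβ-KO library 1 the same 3, without ERβ-KO library 2 12, without either control library 8 and without ERβ5 library 1 30, while a fit of the ERβ5 and ERβ-KO libraries alone called 6. Higher calls over all genes were 818 without ERβ5 library 2, 842 and 953 without ERβ-KO library 1 and 2, 1486 and 1495 without control library 1 and 2, 2311 without ERβ5 library 1 and 1274 in the fit of these groups alone, against 2039 in the fit of all libraries. Without ERβ-KO library 2 neither decrease was called, and without either ERβ5 library NDUFA5 was not.

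**Figure D3:**
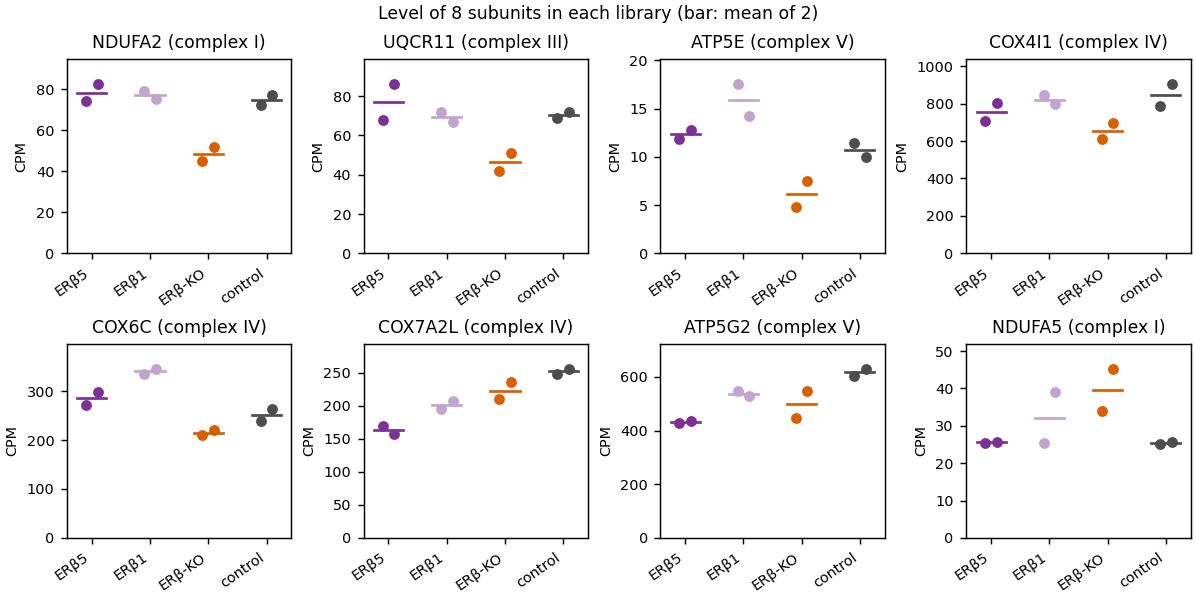
CPM (y axis, from 0) of 8 subunit genes in each library, with groups on the x axis from ERβ5 to control, points for single libraries and bars for the mean of 2. NDUFA2, UQCR11 and ATP5E are lowest in ERβ-KO, COX6C is highest in ERβ1, COX7A2L is lowest in ERβ5 and ATP5G2 is highest in control libraries.

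The 2 isoforms were then compared directly. No member was called higher or lower in ERβ5 than in ERβ1 libraries by edgeR, against 3.49% of all genes higher and 1.18% lower, and DESeq2 called 0 as well. At an unadjusted p under 0.05, 1 was higher (NDUFA9) and 11 were lower. Member changes ran from -0.36 to 0.29 (log2), with a median of -0.06, and both ERβ5 libraries lay below both ERβ1 libraries in 24 members and above in 5, against 20.9% and 22.1% of all genes. Of the 24, 9 were in complex V and 5 in complex III. UQCRB, a ubiquinone-binding subunit, had 130 and 130 CPM in ERβ5 and 160 and 159 CPM in ERβ1 libraries (-0.29 ± 0.09, edgeR adjusted p = 0.112). COX6C was at 272 and 298 CPM in ERβ5 and 335 and 345 CPM in ERβ1 libraries (-0.26 ± 0.10, edgeR adjusted p = 0.188). Neither difference passed, which does not show that the isoforms act alike. Without ERβ5 library 1, 1 member was called higher and 1 lower. A rise called against ERβ-KO with 1 isoform and not the other, as for SDHC or NDUFB7, does not by itself show a difference between the isoforms. SDHC (-0.19 ± 0.10) and NDUFB7 (0.16 ± 0.15) were not called here.

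Against control, COX6C alone was called in ERβ1 libraries, with 335 and 345 CPM in ERβ1 and 238 and 264 CPM in control libraries (0.44 ± 0.10, edgeR adjusted p = 0.0301), and 0 members were lower. All genes were higher in 1.36% and lower in 2.70%. At an unadjusted p under 0.05, 3 members were higher and 1, COX7A2L, lower, and DESeq2 called 1 and 0. Both ERβ1 libraries lay above both control libraries in 26 members and below in 15, against 26.9% and 28.2% of all genes. Without either control library or either ERβ1 library COX6C was not called.

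ERβ5 libraries had 4 members lower and 0 higher than control libraries (edgeR), against 6.31% and 6.85% of all genes. At an unadjusted p under 0.05, 4 members were higher and 9 lower, and DESeq2 called 5 lower and 1 higher. With the GC content and length trend of each library removed the split was 8 higher and 7 lower, against 11.1% and 10.7% of all genes. Both ERβ5 libraries lay above both control libraries in 13 members and below in 20, against 30.3% and 29.8% of all genes. COX7A2L had 169 and 157 CPM in ERβ5 libraries, against 248 and 255 CPM in control libraries. Its log2 change had the lowest adjusted p of the 4 (-0.62 ± 0.10, edgeR adjusted p = 0.00191) and was called in all 8 fits that left out a library. ERβ1 (195 and 207 CPM) and ERβ-KO libraries (209 and 236 CPM) lay between, so the order of its levels was ERβ5, ERβ1, ERβ-KO, control, and no pair of neighbours in that order passed the test. With the trend removed the order was ERβ5, ERβ-KO, ERβ1, control, since ERβ1 over ERβ-KO turned to 0.13 ± 0.08, and ERβ-KO over control was then called (-0.46 ± 0.08, edgeR adjusted p = 0.00699).

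ATP5G2 was the other strong decrease in ERβ5. With ATP5G1 and ATP5G3 it encodes the same ring protein of the membrane rotor, from 3 genes with different targeting sequences. ATP5G2 had 428 and 435 CPM in ERβ5 libraries, against 604 and 630 CPM in control libraries (-0.52 ± 0.11, edgeR adjusted p = 0.00947). ATP5G1 had 150 and 176 CPM in ERβ5 and 128 and 139 CPM in control libraries (0.29 ± 0.11, edgeR adjusted p = 0.104), and ATP5G3 had 225 and 241 CPM in ERβ5 and 211 and 228 CPM in control libraries (0.09 ± 0.10). Per kilobase of the annotated transcripts, ATP5G2 made up 68.0% and 65.3% of the sum of the 3 genes in ERβ5, 72.8% and 72.2% in ERβ1, 73.4% and 75.2% in ERβ-KO, and 77.4% and 76.7% in control libraries. This share was not tested and depends on the transcript lengths used. UQCRB had 130 and 130 CPM in ERβ5 and 158 and 168 CPM in control libraries (-0.33 ± 0.09, edgeR adjusted p = 0.0391). UQCRH had 55.3 and 59.2 CPM in ERβ5 and 73.9 and 81.8 CPM in control libraries (-0.44 ± 0.13, edgeR adjusted p = 0.0473). Without either control library COX7A2L alone was called, without ERβ5 library 1 it was called with ATP5G2, and without that library 5 members were higher.

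Over the 6 comparisons, 34 members were called at least once and 47 never. Among the 47 were ATP5B, COX5A, COX7B, COX8A, NDUFS1, SDHB and SDHD. At 2 libraries a group, single-gene SEs were 0.09 to 0.31 on the log2 scale.

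GC content set the ERβ-KO libraries apart. Across 13249 genes, the correlation of a gene's log2 level relative to all libraries with the GC content of its transcript was 0.12 and 0.34 in the ERβ5 libraries, 0.35 and -0.14 in ERβ1, -0.56 and -0.46 in ERβ-KO, and 0.13 and 0.19 in control libraries. The 2 ERβ1 libraries differed in sign. These are correlations across genes of a library, not across samples. Among the 81 members, the change in ERβ-KO against control had a correlation of -0.45 with GC content. The 27 members of highest GC had a median of -0.28, the middle 27 -0.19 and the lowest 27 -0.13. NDUFB7 (64.9% GC) and NDUFA11 (62.3%) were at the GC-rich end, and NDUFA5, the member that rose, was the poorest in GC (34.6%).

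With each library's trend with GC content and length removed, the order turned round, to medians of -0.02 in the highest, -0.12 in the middle and -0.28 in the lowest 27, and -0.10 over all members. Then 17 members were lower and 0 higher in ERβ-KO than in control libraries, against 5.68% and 5.81% of all genes. Of the 13 decreases, 7 were among them (ATP5A1, ATP5E, COX7C, NDUFA10, NDUFA2, UQCR11 and UQCRH), and COX4I1, NDUFA11, NDUFB2, NDUFB7, NDUFB11 and ATP5SL were not. The rest of the 17 were NDUFB5, UQCRB, COX6C, COX7A2L, NDUFA4, ATP5C1, ATP5F1, ATP5G3, ATP5J and ATP5L. NDUFA5 was 0.15 ± 0.13 and no longer called. Against ERβ-KO, 14 of the 19 increases in ERβ1 remained among 25, and 9 of the 19 increases in ERβ5 among 19, against 11.9% and 9.35% of all genes higher. In ERβ5 the increases no longer called also held NDUFA3 (0.30), COX6A1 (0.18), COX6B1 (0.13), ATP5I (0.09), ATP5G1 (0.15) and ATP5EP2. ATP5E, ATP5J, COX6C, NDUFA2, NDUFS5, UQCR11 and UQCRQ remained in both. COX7A2L in ERβ5 against control remained too (-0.57 ± 0.08).

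**Figure D4:**
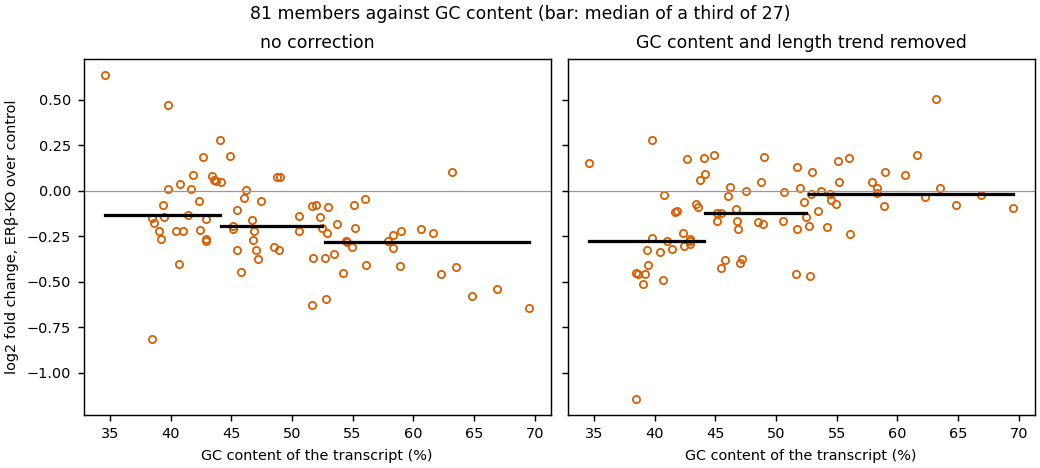
Log2 fold change of the 81 members in ERβ-KO over control (y axis) against the GC content of the transcript (x axis, percent), without correction on the left and with each library's GC and length trend removed on the right. Bars are medians of 27 members each, from -0.13 (lowest GC) to -0.28 (highest GC) on the left and from -0.28 to -0.02 on the right.

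Genes around the chain were listed apart from the members. Values for this and the next lists come from the fit that keeps the GC content and length trend, which set the ERβ-KO libraries apart. How these calls stand with that trend removed is not given, so it may have a part in them. Of 6 chain genes that the symbol rule misses (NDUFAB1, CYC1, CYCS, ATPIF1, USMG5 and C14orf2), none was called in ERβ-KO against control, and C14orf2, a small subunit of complex V, was higher in ERβ1 than in ERβ-KO (0.33 ± 0.09, edgeR adjusted p = 0.0278). None was called in ERβ5 against ERβ-KO.

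Of 45 tested assembly factors, 2 were higher and 3 lower in ERβ-KO than in control, 5 higher and 2 lower in ERβ1 than in ERβ-KO, and 8 higher and 3 lower in ERβ5 than in ERβ-KO. The shares of all genes higher and lower, for this and the next lists, were 8.98% and 8.52%, 12.4% and 12.5%, and 14.7% and 13.5% in these 3 comparisons. ECSIT, needed for complex I assembly, had 38.9 and 50.7 CPM in ERβ-KO and 73.6 and 71.0 CPM in control libraries (-0.69 ± 0.13, edgeR adjusted p = 0.0077). C19orf79 (PET100), needed for complex IV assembly, had 2.94 and 3.46 CPM in ERβ-KO and 4.94 and 5.87 CPM in control libraries (-0.76), and it was higher again in ERβ1 (0.75) and ERβ5 (0.82) than in ERβ-KO. LYRM7, an assembly factor of complex III, was higher in ERβ-KO than in control (0.69) and lower in ERβ5 than in ERβ-KO (-0.83). SCO2, a copper carrier for complex IV, was higher in ERβ5 than in ERβ-KO libraries (0.86), with 15.1 and 25.6 CPM in ERβ5 and 9.75 and 12.7 CPM in ERβ-KO.

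Of 21 tested regulators of respiratory gene transcription, ESRRA (estrogen-related receptor alpha) was the only one called in ERβ-KO against control. It had 31.5 and 44.7 CPM in ERβ-KO and 64.2 and 64.4 CPM in control libraries (-0.76 ± 0.14, edgeR adjusted p = 0.00694). In ERβ1 against ERβ-KO, ESRRA was higher (0.45) and the GABP subunit gene GABPB1 (-0.51) and NRF1 (-0.35) were lower. In ERβ5 against ERβ-KO 2 were higher and 5 lower. GABPA (-0.80) and TFAM, which packages and transcribes mitochondrial DNA (-0.53), were among the lower, and POLRMT, the mitochondrial RNA polymerase (0.61), among the higher. NRF1 had 18.7 and 18.0 CPM in ERβ1 libraries, against 22.8 and 23.9 CPM in ERβ-KO libraries. The coactivator gene PPARGC1A had 0 to 6 reads per library.

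Of 22 tested genes of the tricarboxylic acid cycle and the entry of pyruvate, 1 was higher and 2 lower in ERβ-KO than in control, 7 higher and 0 lower in ERβ1 than in ERβ-KO, and 4 higher and 3 lower in ERβ5 than in ERβ-KO. PC, pyruvate carboxylase, had 58.9 and 53.5 CPM in ERβ-KO and 87.2 and 89.7 CPM in control libraries (-0.65 ± 0.12, edgeR adjusted p = 0.00531). It was higher than in ERβ-KO in ERβ1 (0.89) and in ERβ5 (0.78). PDHA1, of the pyruvate dehydrogenase complex, was higher in ERβ1 than in ERβ-KO (0.41). In ERβ5 against ERβ-KO, IDH1 (-0.42) and DLAT (-0.40) were lower. ACO1, the cytosolic aconitase, was the only gene of these lists called between the isoforms. It had 31.5 and 14.1 CPM in ERβ5 and 83.3 and 79.4 CPM in ERβ1 libraries (-1.83 ± 0.28, edgeR adjusted p = 0.00657).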

How the data were processed

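The authors deposited, for each of 8 RNA sequencing libraries, unnormalised whole-number counts of reads by gene symbol. Per the submitters' processing notes, reads were made with bcl2fastq, aligned to hg19 with TopHat2 2.0.8b and counted with HTSeq. Neither HTSeq's version and strand setting nor the gene models it used are stated in the labels, so antisense neighbours may share reads with a gene. The 5 closing entries that name no gene stayed out of totals, and reads not placed uniquely made up 34.7 to 39.9% of the reads listed.

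Groups came from the sample titles. Genes were filtered with filterByExpr (minimum count 10, minimum total 15), scaled with TMM and fitted in edgeR 4.0.16 under R 4.3.3 by its robust quasi-likelihood method, all 8 libraries in 1 fit, with Benjamini-Hochberg adjustment over 13915 genes and a threshold of 0.05. Since separate cultures are not stated, p-values measure the spread between these libraries, which may be technical. Each SE was taken as the size of the log2 change over the root of its F statistic, and CPM uses TMM-scaled totals, except for ESR2 and the markers, which use gene totals. Alternatives were other size factors, other filters, DESeq2 1.42.0, a fit of the groups compared, the replicate number as a block, lowess GC and length trends removed (transcripts of GENCODE on GRCh37, the build of hg19), and each library left out.

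Members and lists were chosen with earlier results of these data known. Named per comparison and complex were up to 3 called rises and falls without overlap between groups, a fixed set of isoform and core genes, the highest level per length of each complex, and up to 3 called genes of each other list. Other called members are named to complete a count, having been chosen after their values were seen. Promoters came from RefSeq GRCh38.p14. Matches to transcription factor motifs other than the ETS motif are not reported here.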

Additional observations from a re-analysis of the deposited data

Results flagged for a closer look

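ACO1, the cytosolic aconitase, drew attention because the 2 isoforms differed in it by the test of the difference itself, alone among the listed non-member genes of assembly, regulation and the tricarboxylic acid cycle. It had 31.5 and 14.1 CPM in ERβ5, 83.3 and 79.4 CPM in ERβ1, 40.1 and 41.2 CPM in ERβ-KO, and 80.1 and 77.8 CPM in control libraries. The log2 change of ERβ5 over ERβ1 was -1.83 ± 0.28 (edgeR adjusted p = 0.00657). The ERβ5 libraries differed from each other more than those of any other group, and no respiratory subunit passed the same test.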

How the results depend on the processing

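RLE size factors and a minimum of 1 CPM in 2 libraries left every count of called members within 1.5 times. Other settings moved counts, while the median of the members moved by more than the spread between libraries only in ERβ-KO against control with the trend below removed. Without a filter on low counts, ERβ-KO against control gave 2 higher and 22 lower, ERβ1 against ERβ-KO 30 and 2, ERβ5 against ERβ-KO 26 and 4, ERβ1 against control 2 and 1, and ERβ5 against control 1 and 7. Shares of all genes, in the same order, were 9.93% and 9.17%, 11.3% and 12%, 13.1% and 13%, 3.51% and 3.99%, and 7.09% and 6.94%. A fit of only the groups compared gave 2 and 26 in ERβ-KO against control, 1 lower in ERβ1 against ERβ-KO, 6 higher in ERβ5 against ERβ-KO, and 2 and 1 in ERβ1 against control. The matching shares of all genes were 17.3% and 14.3%, 12.8%, 9.38%, and 3.54% and 4.52%. DESeq2 gave 20 lower in ERβ-KO against control and 1 higher in ERβ5 against control, with 10.5% and 7.11% of all genes. With the GC content and length trend removed, 0 were higher in ERβ-KO against control with a median of -0.10, 1 was lower in ERβ1 against ERβ-KO and 1 in ERβ1 against control, and ERβ5 against control gave 8 and 7. All genes stood at 5.81%, 12.2%, 5.28%, and 11.1% and 10.7% in these directions. In ERβ5 against ERβ-KO, NDUFB7 and NDUFV1 then turned to -0.0202 and -0.0223. The cause was not tested.

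Across genes, the deviations of same-numbered libraries from their group means correlated at -0.12 to 0.14. With 2 libraries a group this cannot settle whether the numbers pair the samples. With the replicate block, 15 members were lower in ERβ-KO against control, 23 higher in ERβ1 against ERβ-KO and 21 higher in ERβ5 against ERβ-KO. Of all genes, 8.87%, 12.5% and 14.6% were. With the replicate block and the trend removed together, ERβ-KO against control gave 0 higher and 20 lower with a median of -0.10, ERβ1 against ERβ-KO 1 lower, ERβ1 against control 1 lower, ERβ5 against control 8 and 7, and NDUFB7 and NDUFV1 stood at -0.0203 and -0.0226 in ERβ5 against ERβ-KO. For these counts the shares of all genes were 6.44% and 6.3%, 13%, 5.79%, and 11.6% and 11.1%.

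Leaving out each library in turn gave 0 to 1 higher and 0 to 20 lower in ERβ-KO against control, 3 to 30 higher and 0 to 2 lower in ERβ1 against ERβ-KO, and 3 to 30 higher and 0 to 3 lower in ERβ5 against ERβ-KO. It gave 0 to 1 in either direction in ERβ5 against ERβ1, 0 to 1 higher in ERβ1 against control, and 0 to 5 higher and 1 to 5 lower in ERβ5 against control. A library left alone in its group was assumed to vary like the other groups. Calls over all genes moved in these fits too, so the ranges are not particular to the members.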
